A study of Saccharomyces cerevisiae with 6 samples.

Results

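The interior of budding yeast chromosome XII was followed through early S phase in cells with full-length or altered Orc2. Its members were the 1-kb bins between 30001 and 1049000 of chromosome XII (sacCer3), outside the 40 kb around the centromere and outside the array of ribosomal RNA genes (rDNA, 451001 to 490000). The choice was made by position alone, though with earlier results of these data known. There were 940 such positions, of which 917 had a count in at least 1 library, among 11665 bins with a count in the whole series. A value could be computed for 910 of them. They fall into 3 stretches. The left arm (30001 to 131000) gave 99 bins and runs from YCT1 to PSR1. The stretch from the centromere to the rDNA (171001 to 451000) gave 274 bins and runs from GAT3 to the tRNA gene YNCL0009C. The stretch from the rDNA to the right end (490001 to 1049000) gave 537 bins and runs from RRT15 to FMP27.

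Genomic DNA of W303-1a, a standard laboratory strain, was sequenced from cells held in G1 phase by α-factor (0 min) and from cells let go into S phase for 30 min. The genotype labels are WT, Orc2DeltaN200 (an N-terminal stretch of Orc2 missing, written orc2ΔN200 here) and Orc2194E (a single residue changed, written orc2-I194E). All 6 libraries came from cells passed through a nocodazole block in glucose medium, in which, per the labels' protocols, the product of orc2-1 was depleted in WT and mutants alike. Each strain and time had 1 library, so nothing below is replicated, no test across samples was possible, and intervals are 95% intervals for counting error only. How many clones or cultures stand behind a library is not given in the sources used here.

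Orc2 belongs to ORC, the complex that recognises replication origins and, in G1 phase, places the MCM helicase on them. Origins fire at different times in S phase. Sequence near an early origin reaches a higher copy number sooner than sequence between origins, so a copy number profile shows hills around active origins and valleys where forks arrive late. The rDNA of chromosome XII is a tandem array in which each repeat holds an origin and a replication fork barrier. This barrier stops forks that would meet the transcription of the ribosomal RNA genes head on. The array lies between the centromere and the long distal part of the right arm.

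The quantity used throughout is the log2 of the share of a bin in the S library over its share in the G1 library of the same strain, so that 0 is the genome mean. A relative level is the count per bin over the mean bin of that library. Libraries held 3235720 to 3376203 counts, of which 7.04% to 7.34% lay in the members, and a member bin had a median of 254.5 to 271.0 counts. Of the 30 positions without a value, 24 lay in 4 gaps of 6 kb at the retrotransposon genes YLR035C-A, YLR227W-B, YLR256W-A and YLR410W-B. The array itself was recognisable in the counts, since the bin from 460001 to 461000 held 14090 to 17351 counts.

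The labels of WT and orc2-I194E are in doubt at 1 of the 2 times. The bin 361001 to 362000 of chromosome II, inside ORC2, stood in G1 at 2.64 times its surroundings within 20 kb in the library labelled WT and at 1.76 in that labelled orc2-I194E. In S the same bin stood at 1.81 and 2.67. LEU2 crossed over in the same way, from 2.57 and 1.61 to 1.73 and 2.42. The libraries labelled orc2ΔN200 held 1.70 and 1.85 at ORC2. Strain names below therefore mean libraries labelled so, and several main results are also given with the S or the G1 libraries of WT and orc2-I194E exchanged. Block correlations, values of single hills, valleys, regions and genes, and the run where the mutants differ are given only with the labels as deposited.

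Averaged over their whole length, the stretches on the 2 sides of the rDNA had means within 0.01 of each other in each strain. In WT the mean was -0.049 (-0.064 to -0.033) from centromere to rDNA and -0.057 (-0.068 to -0.047) from rDNA to right end. In orc2ΔN200 these means were -0.034 and -0.038, and in orc2-I194E -0.018 and -0.014. The right stretch minus the left of it came to -0.0087 (-0.028 to 0.010) for WT, -0.0042 (-0.023 to 0.014) for orc2ΔN200 and 0.0037 (-0.015 to 0.022) for orc2-I194E. Each interval includes 0. With the outer 20 kb of the stretches left out, the value of orc2-I194E was 0.021 (0.0011 to 0.041). Its difference from WT, 0.012 (-0.014 to 0.039), was then 0.031 (0.0024 to 0.059). With medians over bins these values were 0.021 and 0.034, and no interval was computed for a median. The left arm stood higher than both, at 0.074 for WT, 0.11 for orc2ΔN200 and 0.16 for orc2-I194E. Its excess over WT was 0.032 (-0.0025 to 0.067) in orc2ΔN200 and 0.085 (0.050 to 0.12) in orc2-I194E. The plot of stretch levels shows this order beside the interiors of the other chromosomes, whose means lay at -0.020, -0.016 and -0.018.

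**Figure D1:**
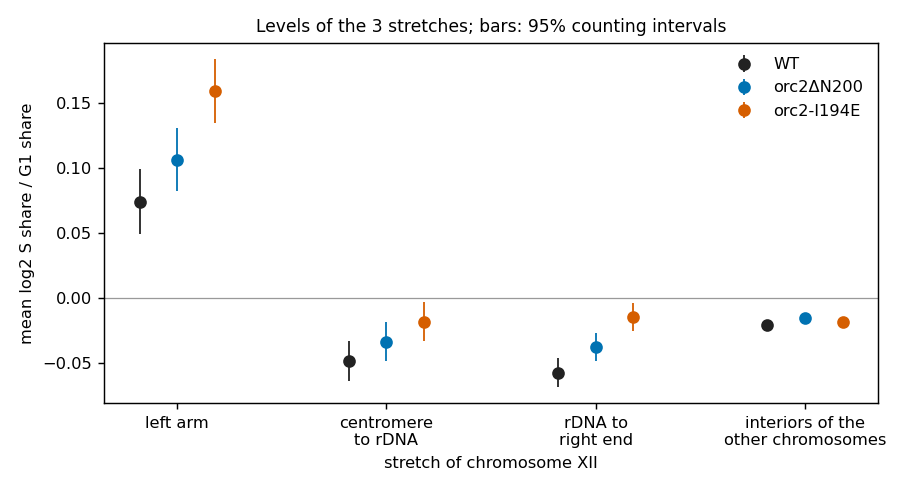
Mean log2 of the S share over the G1 share (y axis) in the 3 stretches of chromosome XII and in the interiors of the other 15 chromosomes (x axis), with 1 point per strain and 95% counting intervals as bars. The stretches on both sides of the rDNA lie just below 0 in all 3 strains, and the left arm lies between 0.074 and 0.16.

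These averages go with profiles of different shape. Over bins, the SD of the 21-kb running mean was 0.153 for WT, 0.109 for orc2ΔN200 and 0.134 for orc2-I194E. Ratios of G1 libraries, which hold no replication, had SDs of 0.0319 (orc2ΔN200 over WT) and 0.0280 (orc2-I194E over WT) on the same bins. That of orc2-I194E over orc2ΔN200 was 0.0353. WT reached its lowest point, -0.45, at 858001 and its highest, 0.20, at 95001. The mutants reached their highest points elsewhere. That of orc2ΔN200 (0.28) lay at 450001 and that of orc2-I194E (0.33) at 449001, both at the left edge of the rDNA. There the running mean draws only on bins left of the rDNA. In orc2-I194E the distal right arm came near this, with 0.32 at 1001001. The lowest points of the mutants were -0.20 and -0.19. On the 5-kb running mean WT ran from -0.54 to 0.28, orc2ΔN200 from -0.32 to 0.32 and orc2-I194E from -0.32 to 0.42. On that scale the highest point of orc2-I194E lay at 1007001, not beside the rDNA. The plot of the 3 profiles shows mutant profiles that follow each other closely and depart from WT most in the distal part of the right arm.

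**Figure D2:**
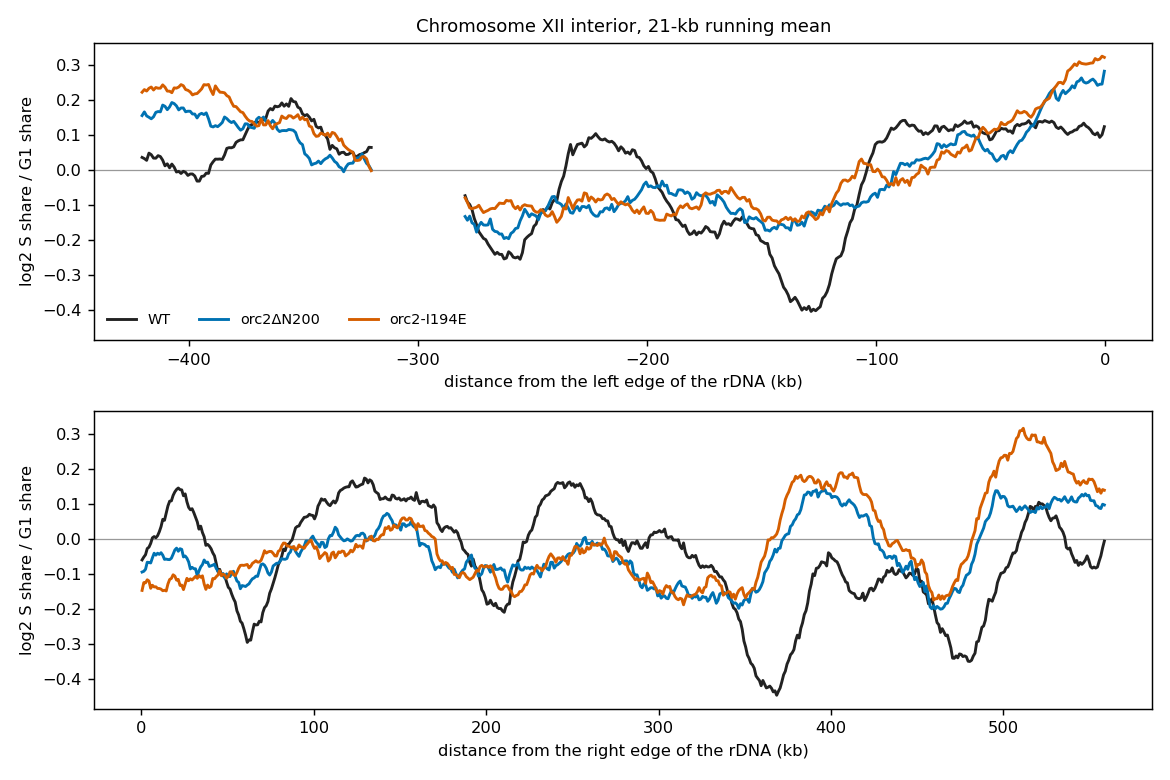
Running mean over 21 kb of the log2 of the S share over the G1 share (y axis) against distance from the left edge (upper panel) or right edge (lower panel) of the rDNA in kb, with 1 line per strain. The gap in the upper panel is the zone around the centromere. WT alternates between hills and valleys down to -0.45, while both mutant lines climb to their highest levels, 0.28 and 0.33, at the left edge of the rDNA. The line of orc2-I194E comes near its highest level again in the distal right arm, with 0.32 at 1001001.

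Likeness was described by the correlation of means over 20-kb blocks, which carries no p. The blocks of a strain come from the same 2 libraries, and neighbouring blocks are not independent. From centromere to rDNA, Pearson's r between WT and orc2ΔN200 was 0.710 and between WT and orc2-I194E 0.666 over 14 blocks. From rDNA to right end it was 0.291 and 0.026 over 28 blocks. The mutants, which share no library, correlated at 0.918 and 0.894 in these stretches. By rank (Spearman's rho) the order turned from centromere to rDNA, with 0.837 and 0.82 against WT and 0.727 between the mutants. From rDNA to right end rho was 0.285 and 0.067 against WT and 0.896 between the mutants. Over 476 blocks of the other chromosome interiors Pearson's r was 0.572 and 0.462 with WT and 0.864 between the mutants. That WT and the mutants are less alike beyond the rDNA than before it was not tested.

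Over 30 kb on each side of the rDNA the mutants departed from WT in opposite directions, higher on the left and lower on the right. In the 30 kb to its left (421001 to 451000), which hold 19 genes, the relative level went from 1.008 in G1 to 1.095 in S in WT, from 0.999 to 1.177 in orc2ΔN200 and from 1.012 to 1.216 in orc2-I194E. The S library stood above the G1 library in all 3 strains, and by more in both mutants than in WT. In the 30 kb to its right (490001 to 520000), also with 19 genes, it went from 0.961 to 1.014 in WT, from 0.965 to 0.927 in orc2ΔN200 and from 0.979 to 0.894 in orc2-I194E. There the S library stood above the G1 library in WT and below it in both mutants. On the log2 scale the left flank stood at 0.12 (0.075 to 0.16) for WT, 0.24 (0.19 to 0.28) for orc2ΔN200 and 0.27 (0.22 to 0.31) for orc2-I194E. The right flank stood at 0.076 (0.030 to 0.12), -0.052 (-0.099 to -0.0052) and -0.12 (-0.17 to -0.075).

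The step across the array, left flank minus right flank, was 0.043 (-0.021 to 0.11) for WT, 0.29 (0.22 to 0.35) for orc2ΔN200 and 0.39 (0.32 to 0.45) for orc2-I194E. The 30-kb flanks were chosen after the values were seen. In WT the step depended on their length and on the G1 library, with 0.13 (0.047 to 0.20) for flanks of 20 kb, 0.087 (0.038 to 0.14) for 50 kb and 0.056 (0.0046 to 0.11) over the pooled G1 libraries, and these intervals lie above 0. The mutant steps stayed larger, at 0.29 and 0.45 for 20 kb and 0.23 and 0.35 for 50 kb. The G1 libraries alone had steps of -0.019 (orc2ΔN200 over WT) and -0.017 (orc2-I194E over WT). With the S libraries of WT and orc2-I194E exchanged, the steps became 0.37 for WT and 0.060 for orc2-I194E. With the G1 libraries exchanged they were 0.060 and 0.37.

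In steps of 10 kb out to 100 kb from the rDNA, both mutant profiles were highest in the last 30 kb left of it. In orc2ΔN200 the mean moved up and down between -0.021 and 0.12 from 100 to 30 kb from the array, with -0.021 at 90 to 100 kb and 0.090 at 30 to 40 kb, and reached 0.29 in the last 10 kb. In orc2-I194E it was -0.032, 0.15 and 0.31 at the same distances. WT had 0.16, 0.17 and 0.12. In that last stretch lies RNH203, which encodes a subunit of ribonuclease H2, with a 5-kb mean of 0.15 for WT, 0.31 for orc2ΔN200 and 0.25 for orc2-I194E. On the right side orc2-I194E stood below 0 in every 10-kb step out to 100 kb, and orc2ΔN200 in all but those at 10 to 20 kb and 90 to 100 kb. The first 10 kb had -0.10 and -0.16, beside -0.058 in WT, and the next had 0.022 and -0.13, beside 0.076. At 20 to 30 kb WT peaked at 0.21 where orc2ΔN200 had -0.073 and orc2-I194E -0.084, and there the G1 libraries of the mutants stood above that of WT by 0.10 and 0.047. Over the first 20 kb WT had 0.0091 (-0.047 to 0.065) and orc2ΔN200 -0.041 (-0.098 to 0.016), a change of -0.050 (-0.13 to 0.030), so the difference in sign between these 2 strains is not seen without the 10 kb beyond. From 50 to 80 kb the order turned, and at 60 to 70 kb WT had -0.31 against -0.12 and -0.056.

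**Figure D3:**
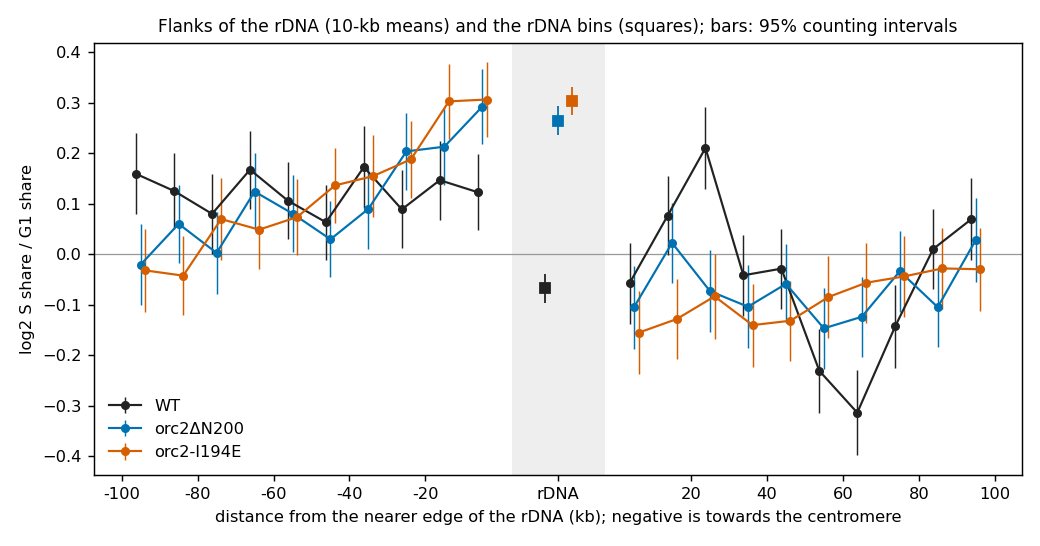
Means over 10 kb of the log2 of the S share over the G1 share (y axis) at distances up to 100 kb from the nearer edge of the rDNA (x axis, negative towards the centromere), with the value of the rDNA bins as squares on the grey band and 95% counting intervals as bars. In the 10 kb left of the array the mutants reach 0.29 and 0.31 and WT 0.12. In the 10 kb right of it both mutants and WT (-0.058) stand below 0. There the changes from WT, -0.047 (-0.16 to 0.068) in orc2ΔN200 and -0.098 (-0.21 to 0.018) in orc2-I194E, have intervals that include 0.

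The bins of the rDNA array, which are no members, were set beside its borders. Only 4 of its 39 bins had counts, and nearly all counts lay between 459001 and 461000. In WT the sum went from 19691 in G1 to 19381 in S, in orc2ΔN200 from 18661 to 21717 and in orc2-I194E from 19520 to 22989. The log2 of S over G1 shares was -0.067 (-0.096 to -0.038) for WT, 0.26 (0.24 to 0.29) for orc2ΔN200 and 0.30 (0.28 to 0.33) for orc2-I194E. The mutant values were near those of the last 10 kb to the left, 0.29 and 0.31. A change in the number of repeats between cultures and replication of the repeats cannot be told apart here. Over the pooled G1 libraries WT came to 0.0028, orc2ΔN200 to 0.19 and orc2-I194E to 0.31. With the S labels exchanged, WT had 0.24 and orc2-I194E -0.0012. Exchanging the G1 labels gave WT -0.0012 and orc2-I194E 0.24.

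A hill or valley is a turning point of the 21-kb profile that stands out by 0.2 or more (its prominence). WT had 6 hills and 6 valleys among the members, orc2ΔN200 2 and 3, and orc2-I194E 2 and 3. The ratios of the mutant G1 libraries to that of WT had 0 of either. The ratio of the G1 libraries of orc2-I194E over orc2ΔN200 had 1 hill and 0 valleys, so the rule can call a hill without replication. The fixed prominence passes fewer hills in a flatter profile, and with 0.1 each mutant had 4 hills. WT had 4 hills over the pooled G1 libraries, with the G1 labels exchanged and with a prominence of 0.3. A level that is highest at an edge, as in the mutants beside the rDNA, is not counted as a hill. Since WT hills and valleys are picked at WT extremes, mutant values are pulled towards lower at hills and higher at valleys by the choice alone.

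At 5 of the 6 WT hills both mutants stood lower. The hill over RIC1, a Golgi guanine nucleotide exchange factor gene at 228001, was the only WT hill between centromere and rDNA, and its relative level went from 0.987 in G1 to 1.071 in S in WT. In orc2ΔN200 it went from 0.992 to 0.903, and in orc2-I194E from 1.005 to 0.938. The log2 values were 0.10, -0.13 and -0.091, so the hill of WT lay in DNA below the genome mean in the mutants. Just beyond the rDNA, the hill over YLR177W at 511001 had 0.15, -0.036 and -0.12. The hill over VPS34, the phosphatidylinositol 3-kinase gene, at 619001 had 0.17, 0.012 and -0.0033. That over STT4, a phosphatidylinositol 4-kinase gene, at 738001 had 0.16, -0.042 and -0.048. On the left arm, the hill next to SSA2, an Hsp70 chaperone gene, at 95001 differed least, with 0.20, 0.12 and 0.16, and the change in orc2-I194E had an interval of -0.13 to 0.031. The median change over the 6 WT hills was -0.17 in orc2ΔN200 and -0.19 in orc2-I194E.

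The exception was the hill over SMC6, a gene for a subunit of the Smc5/6 complex, at 888001. It was a local hill within late DNA in WT, at -0.040 (relative level 1.029 in G1 and 0.994 in S). Both mutants stood higher there, with 1.064 and 1.166 in orc2ΔN200 and 1.048 and 1.168 in orc2-I194E, or 0.13 and 0.15 on the log2 scale. Each mutant profile had its own most prominent hill in the same place, over SMC6 at 886001 in orc2ΔN200 and over VAC14, a gene of phosphoinositide synthesis, at 895001 in orc2-I194E. The other hill of orc2ΔN200 lay over IRC20 at 632001 (0.11 in WT, 0.073 and 0.030) and that of orc2-I194E next to CQD2 at 642001 (0.11, 0.043 and 0.060). Both lay to the right of the WT hill at VPS34.

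The 6 WT valleys were shallower in both mutants. The deepest, over MDM30, an F-box gene of mitochondrial fusion, at 858001, had a relative level of 0.770 in the WT S library and 1.046 in G1. The S libraries of orc2ΔN200 and orc2-I194E held 0.995 and 1.055 there, from 1.024 and 1.039. The valley over GEP5, a mitochondrial maintenance gene, at 322001 had -0.40 for WT, -0.12 for orc2ΔN200 and -0.13 for orc2-I194E. At DCK1 (970001) the values were -0.35, -0.096 and -0.030, and at MSS51, an activator of COX1 translation, at 551001 they were -0.30, -0.13 and -0.073. The shallower WT valleys differed less. SED5, a Golgi syntaxin gene, at 195001 had -0.25, -0.15 and -0.11, and YLR278C at 700001 had -0.21, -0.089 and -0.14. At YLR278C the change in orc2-I194E, 0.074 (-0.0061 to 0.15), had an interval that includes 0. The median change over the 6 valleys was 0.21 in orc2ΔN200 and 0.25 in orc2-I194E. The mutants had valleys of their own at UBR2, TAL1 and PUN1 in orc2ΔN200 and at CSF1, VRP1 and BER1 in orc2-I194E, at -0.15 to -0.20 in the mutant concerned. These 6 were named after their values were seen.

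**Figure D4:**
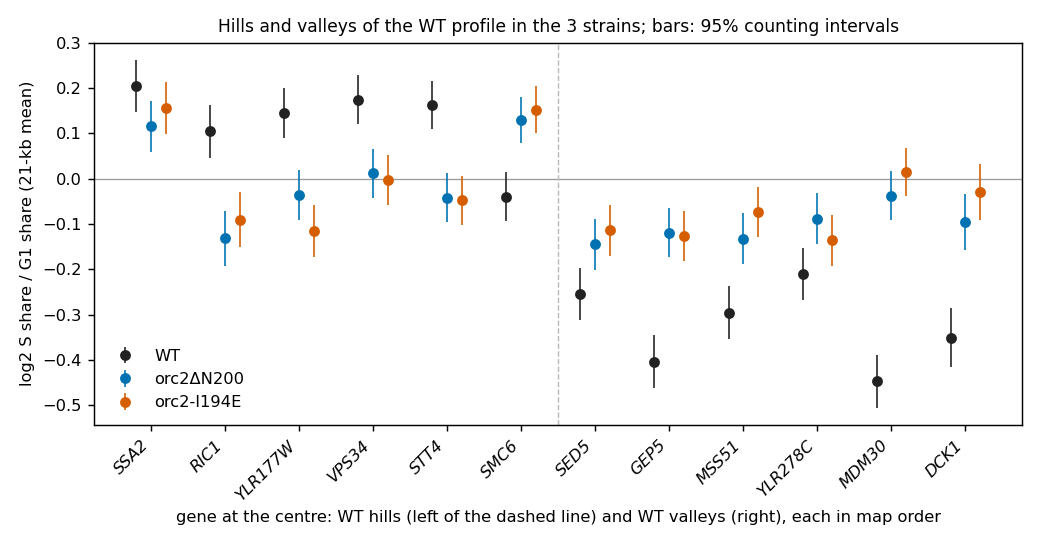
Mean log2 of the S share over the G1 share in the 21 kb around each of the 6 hills and 6 valleys of the WT profile (y axis), named by the gene at the centre (x axis), with 1 point per strain and 95% counting intervals as bars. Mutant points lie below WT at every hill other than SMC6 and above WT at every valley.

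With the S libraries of WT and orc2-I194E exchanged, the hill counts became 2 in WT and 4 in orc2-I194E. At the same 6 hills the median change was then -0.023 in orc2ΔN200 and 0.14 in orc2-I194E, and at the valleys -0.029 and -0.27.

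Lengths of chromosome that differed from WT were counted as bins whose 21-kb mean departed by 0.15 or more. In orc2ΔN200, 177 of the 910 bins were higher (19.5%, beside 13.9% of all kept nuclear bins) and 96 lower (10.5%, beside 11.4%). In orc2-I194E, 265 were higher (29.1%, beside 16.7%) and 120 lower (13.2%, beside 16.6%). Both mutants were higher in 177 bins (19.5%, beside 11.9%) and lower in 83 (9.12%, beside 9.86%). The 2 mutants share the WT libraries. The share of higher bins was thus above that of the genome, while the share of lower bins was close to it or below it. Among the interiors of the other 15 chromosomes the share of higher bins ran from 0% to 33.3% in orc2ΔN200 and from 1.5% to 50.9% in orc2-I194E, so chromosome XII lay within the range. Ratios of G1 libraries passed 0.15 in 0 bins. With the S labels exchanged the counts were 0 higher and 18 lower for orc2ΔN200, and 96 higher and 242 lower for orc2-I194E. Exchanging the G1 labels gave 165 and 67 for orc2ΔN200, and 242 and 96 for orc2-I194E.

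By stretch, the higher bins were densest in the left arm and right of the rDNA. Of the left arm, 20.2% was higher in orc2ΔN200 and 37.4% in orc2-I194E, with 0 bins lower in either. From centromere to rDNA, 10.9% and 18.2% were higher and 8.39% and 11.3% lower. From rDNA to right end, 23.6% and 33.1% were higher and 13.6% and 16.6% lower. These difference profiles are drawn against the G1 libraries in the plot of changes along the chromosome.

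**Figure D5:**
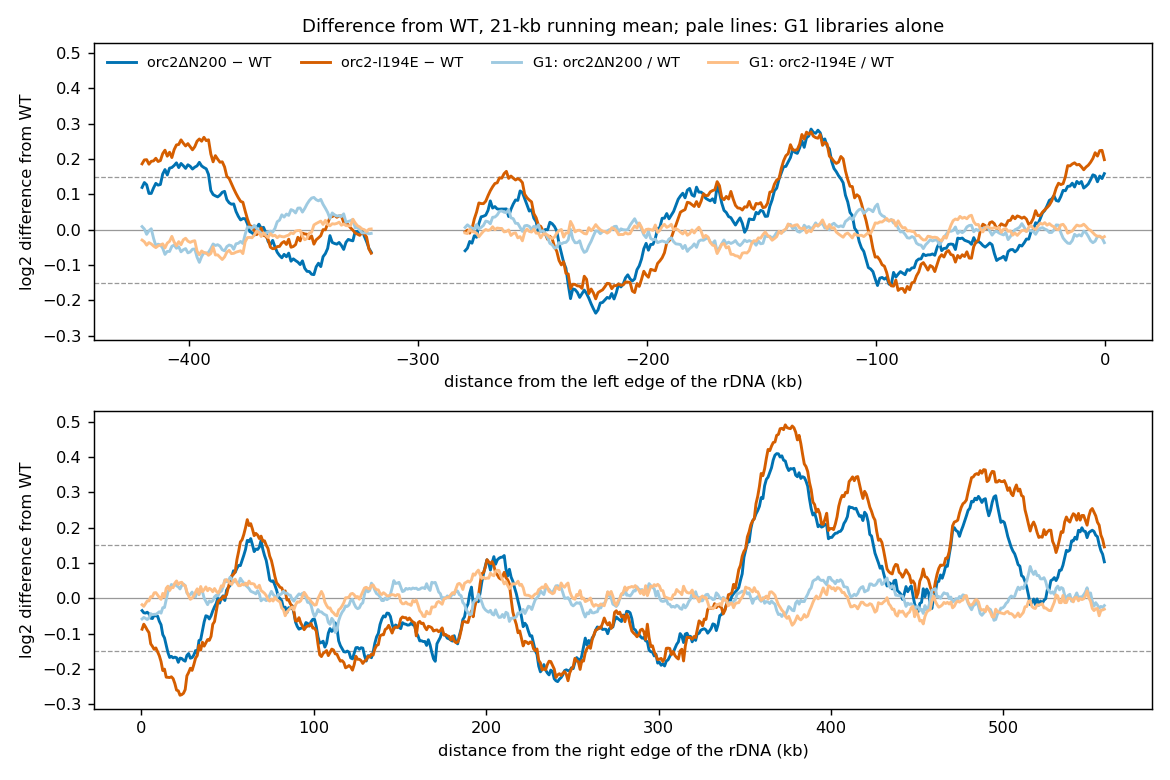
Difference of each mutant from WT in the 21-kb running mean (y axis, log2) against distance from the left edge (upper panel) or right edge (lower panel) of the rDNA in kb, with pale lines for the G1 libraries of the mutants over that of WT and dashed lines at 0.15 above and below 0. The pale lines stay within the dashed ones, and the mean of both mutants stands highest, at 0.44, near SSQ1 in the distal right arm.

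Where the average of the 2 mutants departed from WT by 0.15 or more for 10 kb or longer, the bins formed 6 higher regions of 207 kb in all and 5 lower regions of 106 kb. These regions were chosen by this difference, so their values are a description. They were not counted on the other chromosomes, so no share over the genome stands beside their numbers. With the S labels exchanged 0 regions were higher and 5 lower, and with the G1 labels exchanged 7 and 4. The regions described here are those with the labels as deposited. The longest was higher in the mutants, from 841001 to 917000, with 45 genes from RSC2 to SKI2 and its peak of 0.44 at SSQ1, a mitochondrial Hsp70 gene. Its relative level went from 1.028 to 0.876 in WT, from 1.034 to 1.063 in orc2ΔN200 and from 1.017 to 1.096 in orc2-I194E. On the log2 scale WT had -0.24, below the genome mean, where the mutants had 0.037 and 0.10, above it.

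Further out, the region from 959001 to 1002000 around TUS1, a Rho1 exchange factor gene, had -0.21 for WT, 0.015 (-0.026 to 0.055) for orc2ΔN200 and 0.11 (0.066 to 0.15) for orc2-I194E. The region from 1025001 to 1047000 around SST2, which encodes the regulator of pheromone G protein signalling, had -0.075, 0.13 and 0.16. The last 69 kb of the members (980001 to 1049000) together stood at -0.023 (-0.054 to 0.0084), 0.10 (0.075 to 0.13) and 0.22 (0.19 to 0.25).

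The left end gave a like picture. The region from 35001 to 61000, with 13 genes and its peak at VPS13, a lipid transfer protein gene, had -0.0074 for WT, 0.19 for orc2ΔN200 and 0.22 for orc2-I194E. Its relative level in the G1 libraries was 1.040, 0.998 and 1.015, so the G1 libraries already differed by -0.066 and -0.037 (log2 of the mutant over WT). The part of this in the change was not tested. From 30001 to 80000 the means were 0.030 (-0.0052 to 0.065), 0.16 (0.12 to 0.19) and 0.22 (0.18 to 0.25). From there the profiles crossed, and from 110001 to 130000 the 3 strains stood at 0.043, 0.012 and 0.063.

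The remaining higher regions, like those around SSQ1 and TUS1, hold a WT valley. That from 309001 to 337000 around GEP5 had -0.37, -0.14 and -0.13, and that from 549001 to 561000 around MSS51 had -0.32, -0.11 and -0.084. In both the mutants stayed below the genome mean.

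The lower regions were spread over the right arm, and 4 of the 5 lay beyond the rDNA. That stretch holds 537 of the 910 bins, so nothing is read from this count. From 217001 to 241000 around RIC1 WT had 0.088, orc2ΔN200 -0.12 and orc2-I194E -0.085. From 502001 to 523000 around YLR179C the values were 0.14, -0.028 and -0.13, and from 605001 to 625000 around THI7, a thiamine transporter gene, 0.15, -0.0036 and -0.016. The region from 719001 to 747000 around EXG1, an exo-glucanase gene, had 0.15, -0.065 and -0.061. The shortest, from 787001 to 800000 around MID2, a cell wall sensor gene, had 0.020, -0.17 and -0.15. At THI7 both mutant intervals include 0, the genome mean, and at YLR179C that of orc2ΔN200 does.

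The 2 mutants differed from each other in few places. The 21-kb mean of orc2-I194E was higher than that of orc2ΔN200 by 0.15 or more in 24 bins (2.64%, beside 1.58% of all kept nuclear bins) and lower in 0 (beside 0.667%). All 24 lay in a single run from 993001 to 1017000, with its largest difference of 0.23 at ATG23, an autophagy gene. There the relative level went from 0.939 to 0.981 in WT, from 0.969 to 1.039 in orc2ΔN200 and from 0.929 to 1.123 in orc2-I194E. On the log2 scale this was 0.065, 0.094 and 0.28, and the mutants differed by 0.19 (0.11 to 0.26). The G1 libraries differed in the same place, by 0.052 (orc2ΔN200 over WT) and -0.021 (orc2-I194E over WT). The lowest 21-kb ratio of the mutant G1 libraries on the chromosome, -0.11 (orc2-I194E over orc2ΔN200), lay within the run at 1008001, and its part in the result was not tested. In the block around SSQ1 orc2-I194E stood above orc2ΔN200 by 0.067 (0.028 to 0.11) and around TUS1 by 0.092 (0.035 to 0.15). Around YLR179C, right of the rDNA, it stood below by -0.11 (-0.18 to -0.026). In each of the other regions the interval included 0, as around EXG1 with 0.0033 (-0.063 to 0.070). The run was picked for its size.

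Single genes were described by the 5-kb mean centred on each, whose change from WT has a counting interval of about 0.16 on each side. Of the 18 genes listed for DNA replication, cell cycle control and chromosome upkeep, 17 lay in the members, and ORC3 did not. Of these, 3 were higher and 2 lower than WT by 0.15 or more in orc2ΔN200, and 5 and 5 in orc2-I194E. Over all 6128 genes with a value, 17.4% were higher and 16.8% lower in orc2ΔN200, and 18.7% and 20.7% in orc2-I194E. The median change of the list was -0.013 and 0.0051, against -0.0082 and -0.0070 over all genes, and nothing is read from these counts about the list.

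The listed genes differed among themselves. MCM5, which encodes a subunit of the replicative helicase, lies in the valley at YLR278C and had -0.28 for WT, -0.20 for orc2ΔN200 and -0.036 for orc2-I194E. CLB4, a B-type cyclin gene, next to the valley at MSS51, had -0.17, 0.0003 and -0.048. CTF3, a kinetochore gene beside SMC6, had -0.084, 0.19 and 0.14, the largest excess over WT of the list in orc2ΔN200 (0.28, 0.13 to 0.43). SWI6, which encodes the shared subunit of the G1/S transcription factors SBF and MBF, lies right of the rDNA and had 0.11, -0.040 and -0.18. MEC3, a DNA damage checkpoint clamp gene, had 0.080, -0.12 and -0.17, the largest deficit of the list in orc2ΔN200. CDC45, whose product travels with the helicase, had -0.0011, -0.084 and 0.072, with an interval for the change in orc2ΔN200 of -0.24 to 0.073.

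The 18 ribosomal protein genes had medians of -0.037 for WT, -0.080 for orc2ΔN200 and -0.11 for orc2-I194E. In orc2ΔN200 3 were higher and 3 lower by 0.15 or more, and in orc2-I194E 4 and 5. In WT they ran from -0.44 to 0.10. RPS22B, in the valley over MDM30, had -0.44, -0.094 and -0.066. RPL8B, in the higher region of the left arm, had -0.034, 0.26 and 0.27 from 4 bins, since its central bin had no value. There the G1 libraries already differed from WT by -0.112 (orc2ΔN200) and -0.0675 (orc2-I194E), and the part of this in the change was not tested. RPL26A, between MID2 and MDM30, had 0.013, -0.18 and -0.18. Of the 21 tRNA genes of the chromosome 18 had a value among the members, with medians of 0.068, -0.059 and -0.022. In orc2ΔN200 4 were higher and 6 lower, and in orc2-I194E 3 and 5. Beside the 17.4% higher and 16.8% lower of all genes in orc2ΔN200 and the 18.7% and 20.7% in orc2-I194E, nothing is read from the counts of ribosomal protein or tRNA genes. Several share a window with a neighbour, as YNCL0009C does with RNH203, so these genes are not independent points.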

How the data were processed

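The deposited files give whole-number counts per 1-kb bin, listed only where above 0. Library totals differ, so the counts were not scaled to a common total. Build sacCer3 is named in the submitters' processing notes, with no roles for the tools bedtools 2.31.0, R 4.3.0, SAMtools 1.18, Bowtie2 2.5.3 and Picard 2.27.5. Filters, duplicates and the treatment of reads that map to repeats are not given in the sources used here.

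A nuclear bin was kept if outside the rDNA, above 0 in every library and with G1 counts of 0.3 to 3 times the library median (11273 bins). Shares are counts over the total of kept bins. Profiles are centred running means of 5 kb or 21 kb and need 50% of their bins. Near the centromere zone and near the outer edges at both chromosome ends they draw on bins outside the members. They never cross the rDNA. Counting intervals (95%) come from Poisson variances by the delta method, and for the rDNA bins from an exact binomial interval. Gene positions are those of RefSeq's R64 table, the same assembly. The steps used matplotlib 3.10.9, SciPy 1.17.1, pandas 2.3.3 and numpy 2.4.6 under Python 3.11.15, and were tested on simulated data.

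Members, lists, thresholds and comparisons were chosen with earlier results of these data known. Genes named are those at hills, valleys, regions and edges of stretches, and the listed replication genes, of which some are given only in counts. The 30-kb flanks, the parts at both ends, the run where the mutants differ and the single ribosomal protein genes were picked after their values were seen. No test across samples was run.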

Additional observations from a re-analysis of the deposited data

Results flagged for a closer look

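In several places the WT profile and both mutant profiles lay on opposite sides of the genome mean, each beyond its counting interval. With 1 library per strain and time these differences were not tested. The values hold for the labels as deposited, of which those of WT and orc2-I194E are in doubt at 1 time. In the order WT, orc2ΔN200 and orc2-I194E, the WT hill over RIC1 had 0.10, -0.13 and -0.091, and the lower region around it 0.088, -0.12 and -0.085. The lower region around EXG1 had 0.15, -0.065 and -0.061. The 30 kb right of the rDNA had 0.076, -0.052 and -0.12, but in its first 20 kb the intervals of WT (0.0091) and orc2ΔN200 (-0.041) include 0. In the other direction, the orc2ΔN200 hill over SMC6 had -0.069, 0.14 and 0.16, and the orc2-I194E hill over VAC14 -0.090, 0.099 and 0.19. The higher region around SSQ1 had -0.24, 0.037 and 0.10, and that around SST2 -0.075, 0.13 and 0.16. Hills and regions were chosen on these profiles, which favours such contrasts.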

How the results depend on the processing

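With 1 library per group the intervals cover counting error only, and the spread between cultures is unknown. Of 240 values recomputed under alternatives, 188 stayed within their counting interval, or within 1.5 times for counts, and 46 moved further. The other 6 changed sign from a main value whose interval excludes 0. A change of sign in a value whose interval includes 0 was counted only by the size of its shift. The cause was not tested. Values follow the order WT, orc2ΔN200, orc2-I194E where strains are not named. Exchanging the labels of WT and orc2-I194E in S moved most. Levels of the stretches became 0.14, -0.024 and -0.012 in WT and 0.098, -0.043 and -0.059 in orc2-I194E (left arm, centromere to rDNA, rDNA to right end). Right minus left of the rDNA became 0.011 in WT, -0.016 in orc2-I194E and -0.027 for orc2-I194E minus WT. The SD of the profile was 0.125 in WT and 0.154 in orc2-I194E, with 2 and 4 hills and 3 and 6 valleys. Median changes became -0.023 (orc2ΔN200) and 0.14 (orc2-I194E) at WT hills and -0.029 and -0.27 at valleys. The length higher was 0 kb and 96 kb, the length lower 18 kb and 242 kb, and 0 regions were higher. The step across the rDNA was 0.37 in WT and 0.060 in orc2-I194E, and the rDNA bins stood at 0.24 and -0.0012.

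Exchanging the G1 libraries gave 4 hills in WT, an SD of 0.125 in orc2-I194E, and rDNA bins at -0.0012 in WT and 0.24 in orc2-I194E. Over a common G1, WT had 4 hills and orc2-I194E 1, with rDNA bins at 0.0028 in WT and 0.19 in orc2ΔN200. Medians over bins put the stretch before the rDNA at -0.025, -0.051 and -0.047, and the stretch beyond at -0.038 in WT and -0.026 in orc2-I194E. An 11-kb mean gave an SD of 0.162 in WT and 4 hills in orc2-I194E. A prominence of 0.1 gave 4 hills in each mutant and 6 valleys in orc2ΔN200, and 0.3 gave 4 hills in WT and 1 in each mutant. A threshold of 0.1 gave 190 kb lower in orc2ΔN200 and 210 kb in orc2-I194E. With 0.2, 99 kb were higher and 23 kb lower in orc2ΔN200, and 30 kb lower in orc2-I194E. Flanks of 20 kb gave a step of 0.13 in WT. For orc2-I194E minus WT, the interval of right minus left of the rDNA no longer included 0 with the outer 20 kb left out (0.031). Nor did it with either exchange of labels (0.027 for G1). With medians this value was 0.034, without an interval of its own. All alternatives for the flanks and the comparison of S libraries alone were chosen after seeing the data. No paired analysis was possible because the labels give no replicate numbers and each group has 1 library.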
